A study of Homo sapiens with 6 samples.

Results

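The genes described here are TBCA, the other 4 tubulin-folding cofactor genes (TBCB, TBCC, TBCD and TBCE) and 5 major tubulin genes (TUBA1A, TUBA1B, TUBA1C, TUBB and TUBB4B). They were taken by gene symbol and make 10 of the 58243 genes in the table of counts. All 10 passed the filter on low counts. They were chosen after a fall of TBCA had been seen in these same libraries, so the values of TBCA are given as a description without a test. The other 9 were added for their function, and the question was whether tubulin mRNA followed TBCA.

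Total RNA was sequenced from cells that the labels call Hep3B, a human hepatocellular carcinoma line. In 3 libraries the cells had received si-SNHG17-1, a small interfering RNA (siRNA) directed at the long noncoding RNA SNHG17, and in 3 libraries the control siRNA si-NC. The labels name a single siRNA against SNHG17 and give no time after transfection. Nothing in them ties the replicates to separate cultures, so each p-value rests on the spread among these libraries alone, and that spread may be technical. Total counts ranged from 30207055 to 41620321 in si-SNHG17-1 and from 38245838 to 42271168 in si-NC. SNHG17 had 8.03, 8.02 and 8.27 CPM (counts scaled to a common library total) in si-SNHG17-1 and 22.4, 22.8 and 23.9 CPM in si-NC, so the target was lower in all 3 si-SNHG17-1 libraries. Of 12 markers of Hep3B cells and hepatocytes, 11 were under 1 CPM in every library, and TTR and GPC3 were listed at 0. The summed level of these markers was 3.51 to 5.35 CPM in si-SNHG17-1 and 2.45 to 3.37 CPM in si-NC. Of 6 mesenchymal markers, 5 were present and COL1A2 was at 0 in every library, with sums of 1662 to 1787 CPM in si-SNHG17-1 and 1591 to 1794 CPM in si-NC. The 5 immune and endothelial markers summed to 43.0 to 62.1 CPM in si-SNHG17-1 and 34.7 to 39.3 CPM in si-NC, most of it CD68, and PTPRC did not pass 0.397 CPM in any library. The 4 neuronal markers summed to 11.2 to 14.5 CPM in si-SNHG17-1 and 11.4 to 12.3 CPM in si-NC, with SNAP25 at 7.28 to 9.82 CPM over all libraries. The part of these differences in the results was not tested, and the cells are called by their label only.

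Microtubules are polymers of alpha and beta tubulin, which join as a dimer. Newly made tubulin is passed by the prefoldin complex to the chaperonin TRiC, which folds it. The folding cofactors then assemble the dimer: TBCA holds beta tubulin and TBCB holds alpha tubulin, TBCD and TBCE take them over, and TBCC with the small GTPase ARL2 releases the finished dimer. Cells also adjust tubulin mRNA to the amount of free tubulin, through TTC5, a factor that recognises the first amino acids of alpha and beta tubulin as they leave the ribosome and leads to decay of the mRNA.

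The start of the coding sequence is shown for the 5 tubulins because these bases encode the stretch that TTC5 reads, and for TBCA for contrast. Sequences are from GENCODE release 29 (GRCh38), 30 bases from the start codon, with the first 4 codons in capitals. Those of the alpha tubulins are split by an intron in the genome.
TUBA1A: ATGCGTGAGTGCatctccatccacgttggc
TUBA1B: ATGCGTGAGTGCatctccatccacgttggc
TUBA1C: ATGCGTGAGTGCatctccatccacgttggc
TUBB: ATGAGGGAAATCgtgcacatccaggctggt
TUBB4B: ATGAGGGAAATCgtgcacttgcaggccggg
TBCA: ATGGCCGATCCTcgcgtgagacagatcaag
The sequences of TUBA1A (chr12:49186807-49188979, minus strand), TUBA1B (chr12:49129696-49131300, minus) and TUBA1C (chr12:49265182-49269491, plus) were identical over these 30 bases. Those of TUBB (chr6:30720507-30720536, plus) and TUBB4B (chr9:137241361-137241390, plus) shared all 12 capital bases and 26 of the 30. The start of TBCA lies at chr5:77776228-77776257 on the minus strand.

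TBCA was far lower in si-SNHG17-1, and none of the 5 major tubulin genes was called lower with it. TBCA (ENSG00000171530.13, chromosome 5, 77691166 to 77868780, minus strand) had 711, 912 and 677 counts in si-SNHG17-1 and 3836, 3791 and 4350 counts in si-NC. Scaled for library size with edgeR's TMM factors, this was 18.6, 21.6 and 22.0 CPM in si-SNHG17-1 and 102, 90.8 and 110 CPM in si-NC. The groups lay far apart, and every si-SNHG17-1 library was below every si-NC library. The means were 20.8 ± 1.88 CPM in si-SNHG17-1 and 101 ± 9.49 CPM in si-NC (SD, n = 3 each), so that 20.6% of the si-NC level remained. In bulk RNA, fewer cells that express a gene and less RNA in each cell cannot be told apart. On the log2 scale the change was −2.28 ± 0.12 SE, and it ranked 56 from the lowest among 18679 genes tested. It ranged from −2.35 to −2.20 over 13 alternative fits. The tested genes on either side of TBCA, which were picked by position, were not called. WDR41 averaged 62.3 ± 4.16 CPM in si-SNHG17-1 and 65.6 ± 1.41 CPM in si-NC (SD, n = 3 each; edgeR adjusted p = 0.652). AP3B1, a subunit of the AP-3 adaptor complex, averaged 84.2 ± 12.2 CPM in si-SNHG17-1 and 69.5 ± 4.79 CPM in si-NC (edgeR adjusted p = 0.190).

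**Figure D1:**
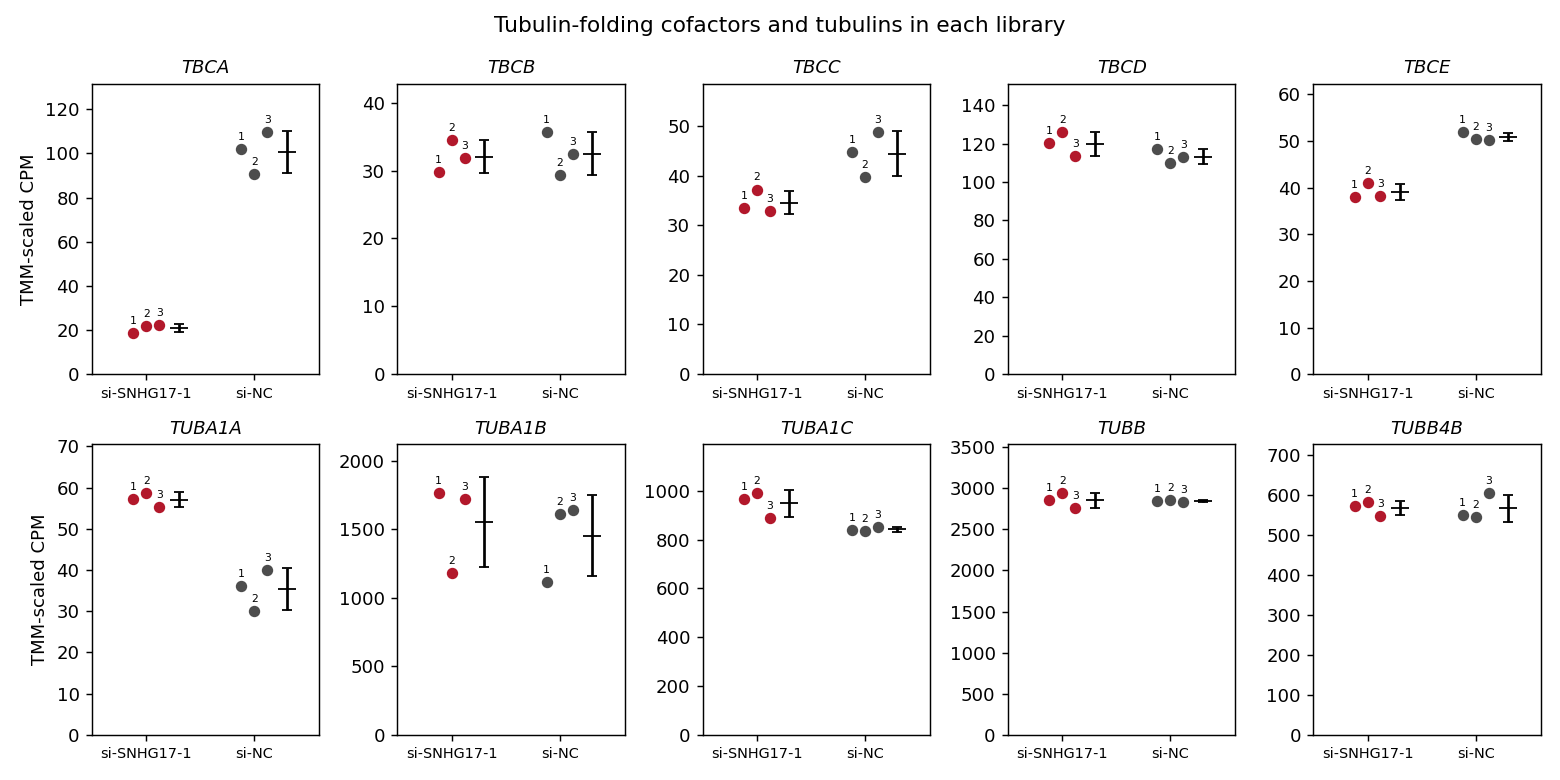
TMM-scaled CPM of each gene (y axis, from 0) in the 3 si-SNHG17-1 libraries (red) and the 3 si-NC libraries (grey), numbered by replicate, with mean and SD beside the points. TBCA is between 18.6 and 22.0 CPM in si-SNHG17-1 and at 90.8 to 110 CPM in si-NC, while TUBB and TUBB4B overlap.

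Of the other 4 cofactors, TBCE was lower by the test and TBCC was lower without passing it. A gene was called at an edgeR quasi-likelihood adjusted p under 0.05, with Benjamini-Hochberg adjustment over all genes, and 10.5% of all tested genes were called (5.25% higher and 5.21% lower). Of the 9 members other than TBCA, 2 were called, TUBA1A higher and TBCE lower. In 4 of these 9 the CPM of the groups did not overlap (2 higher, 2 lower), beside 33.7% of all tested genes (16.4% higher, 17.3% lower). The median log2 fold change of the 9 was 0.0071, and that of all genes tested −0.0017.

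TBCE, which binds alpha tubulin and takes part in dimer assembly, had 38.0, 41.0 and 38.2 CPM in si-SNHG17-1 and 51.9, 50.5 and 50.3 CPM in si-NC. All 3 si-SNHG17-1 libraries were below all si-NC libraries. The log2 fold change was −0.38 ± 0.09 SE (edgeR adjusted p = 0.0352). The call was lost in each of the 6 fits without 1 library, at adjusted p from 0.0697 (without si-NC replicate 1) to 0.139 (without si-SNHG17-1 replicate 1), and without the filter on low counts (0.0610). With replicate number as a block it was lost too (edgeR adjusted p = 0.126). The fold change stayed between −0.41 and −0.34 over all 13 alternatives. In the deposited table TBCE (ENSG00000116957.12) runs on chromosome 1 from 235367360 to 235448968. GENCODE release 29 has no gene of this ID and gives TBCE a longer end. In that annotation its exons share 187 bases with RPS21P1 on the same strand, which had 7, 1 and 0 counts in si-SNHG17-1 and 11, 1 and 0 in si-NC. They also share 418 bases with B3GALNT2, a glycosyltransferase gene on the opposite strand. Whether those 418 bases lie within the ends of the deposited table was not taken. B3GALNT2 fell to 23.8 ± 3.08 CPM in si-SNHG17-1, against 37.8 ± 3.54 CPM in si-NC (log2 fold change −0.67, edgeR adjusted p = 0.0235, n = 3 each). Whether reads of B3GALNT2 reached the count of TBCE was not tested.

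TBCC, which releases the dimer, had 33.5, 37.2 and 32.9 CPM in si-SNHG17-1 and 44.7, 39.7 and 48.8 CPM in si-NC. The groups did not overlap, but the difference missed the threshold (log2 fold change −0.36 ± 0.11 SE, 95% interval −0.63 to −0.09, edgeR adjusted p = 0.0896). No alternative brought TBCC past the threshold, with adjusted p from 0.0587 to 0.251. TBCC lies on chromosome 6 from 42744481 to 42746096 and shared no exon with another gene.

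TBCB, the alpha tubulin binder, had 29.8, 34.6 and 31.8 CPM in si-SNHG17-1 and 35.7, 29.4 and 32.5 CPM in si-NC, and the groups overlapped. Its log2 fold change was −0.02 with a 95% interval of −0.30 to 0.26 (edgeR adjusted p = 0.938). TBCD, the cofactor that takes beta tubulin from TBCA, had 120, 126 and 113 CPM in si-SNHG17-1 and 117, 110 and 113 CPM in si-NC. Its groups overlapped too, with a log2 fold change of 0.08 and an interval of −0.09 to 0.26 (edgeR adjusted p = 0.554). These intervals do not reach the change of TBCA. TBCB shares 417 exon bases with POLR2I on the opposite strand (log2 fold change −0.15, edgeR adjusted p = 0.447). It also shares 194 with AD001527.2 on its own strand (0.34, edgeR adjusted p = 0.537). TBCD shares 787 with B3GNTL1 on the opposite strand (−0.86, edgeR adjusted p = 0.0689). Whether reads of these genes reached the counts of TBCB and TBCD was not tested.

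**Figure D2:**
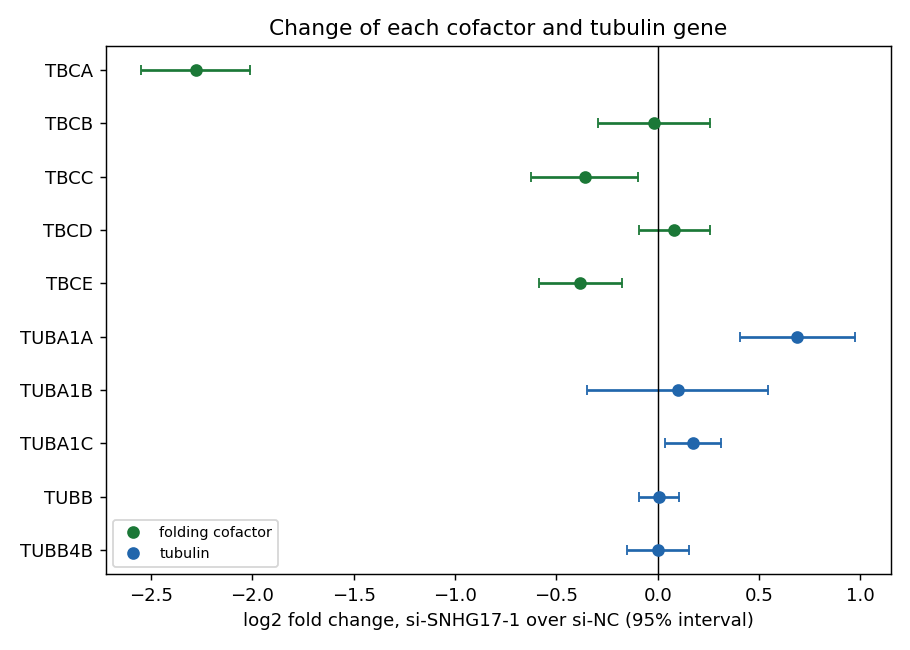
Log2 fold change of si-SNHG17-1 over si-NC for each gene (x axis), with its 95% interval from the edgeR fit, for the cofactors (green) and the tubulins (blue). TBCA lies at −2.28, while the intervals of all 5 tubulins lie above −0.35.

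Both beta tubulins among the members were at nearly the same level in both groups, and beta tubulin is the partner of TBCA. TUBB (ENSG00000196230.12, chromosome 6, 30720201 to 30725426, plus strand) had 109346, 124068 and 84758 counts in si-SNHG17-1 and 107158, 119098 and 112112 counts in si-NC. In CPM this was 2861, 2945 and 2760 in si-SNHG17-1 and 2844, 2853 and 2827 in si-NC, with overlapping groups. The log2 fold change was 0.0071, with a 95% interval of −0.09 to 0.11 (edgeR adjusted p = 0.939). TUBB4B (ENSG00000188229.5, chromosome 9, 137241213 to 137243707, plus strand) had 573, 582 and 548 CPM in si-SNHG17-1 and 549, 546 and 606 CPM in si-NC. Its log2 fold change was 0.0020, with an interval of −0.15 to 0.15 (edgeR adjusted p = 0.991). Summed, the beta tubulins gave 3423 ± 110 CPM in si-SNHG17-1 and 3408 ± 21.6 CPM in si-NC (SD, n = 3 each).

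None of the alpha tubulins among the members was called lower, and TUBA1A, the least abundant of these per length, rose. TUBA1A (ENSG00000167552.13, chromosome 12, 49184796 to 49189324, minus strand) had 57.3, 58.7 and 55.2 CPM in si-SNHG17-1 and 36.1, 30.1 and 40.0 CPM in si-NC. All 3 si-SNHG17-1 libraries were above all si-NC libraries. TUBA1A rose 1.61-fold (log2 fold change 0.69 ± 0.12 SE, edgeR adjusted p = 0.0151). The call was lost without si-SNHG17-1 replicate 1 or 2 (adjusted p = 0.0639 and 0.0585), at log2 fold changes of 0.70 and 0.68, and kept in the 4 other fits without 1 library. Of those, the fit without si-SNHG17-1 replicate 3 kept it narrowly (edgeR adjusted p = 0.04995). With replicate number as a block the call was also lost (edgeR adjusted p = 0.0629). TUBA1C (ENSG00000167553.15, 49188736 to 49274603, plus strand) had 966, 991 and 886 CPM in si-SNHG17-1 and 838, 833 and 853 CPM in si-NC. Its groups did not overlap, and its log2 fold change of 0.17 ± 0.06 SE missed the threshold (95% interval 0.03 to 0.31, edgeR adjusted p = 0.112).

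TUBA1B (ENSG00000123416.15, chromosome 12, 49127782 to 49131397, minus strand) varied more within the groups than between them. It had 1767, 1178 and 1725 CPM in si-SNHG17-1 and 1115, 1609 and 1639 CPM in si-NC. Replicate 2 of si-SNHG17-1 and replicate 1 of si-NC were low, and the other 4 libraries lay between 1609 and 1767 CPM. The log2 fold change was 0.10, with a 95% interval of −0.35 to 0.54 (edgeR adjusted p = 0.797). Without si-NC replicate 1 it was −0.06, and without si-SNHG17-1 replicate 2 it was 0.27, and neither passed the test. The 3 alpha tubulins summed to 2562 ± 295 CPM in si-SNHG17-1 and 2331 ± 298 CPM in si-NC (SD, n = 3 each), and the 5 tubulins to 5985 ± 235 CPM in si-SNHG17-1 and 5739 ± 313 CPM in si-NC. The 5 tubulins made 0.606% ± 0.0235 of all counts in si-SNHG17-1 and 0.565% ± 0.0306 in si-NC.

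Near-identical sequence limits how the alpha tubulins can be told apart. Over the coding sequence, TUBA1A and TUBA1B were 97.2% identical, TUBA1B and TUBA1C 97.3%, and TUBA1A and TUBA1C 96.3%, whereas TUBB and TUBB4B were 84.6% identical. Of all 50-base windows of the principal transcript, 87.1% in TUBA1B, 51.8% in TUBA1A and 40.1% in TUBA1C also occurred in a transcript of another gene, on either strand. These shares include RNAs annotated on the opposite strand, so they do not measure likeness among the alpha tubulins alone. Of the TUBA1B windows, 68.7% occurred in AC011603.2, annotated on the opposite strand, 38.6% in TUBA1A and 37.2% in TUBA1C. The share with any other gene was 30.8% in TUBB, 21.9% in TBCB, 14.6% in TUBB4B, 8.36% in TBCA, 5.66% in TBCD, 3.42% in TBCE and 0% in TBCC. The 21.9% of TBCB occurred in POLR2I and the 5.66% of TBCD in B3GNTL1, both on the opposite strand. TUBA1A gave 2.25% ± 0.331 of the alpha tubulin CPM in si-SNHG17-1 and 1.54% ± 0.301 in si-NC. How the authors' counting split reads among the 3 genes is not stated, so the value of TUBA1A is uncertain, and the part of TUBA1B and TUBA1C reads in its rise was not tested. TUBA1A and TUBA1C also share 490 exon bases on opposite strands.

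RNAs annotated on the strand opposite 3 of the tubulin genes had many counts. AC011603.2, whose exons share 1309 bases with TUBA1B, averaged 1208 CPM in si-SNHG17-1 and 1185 CPM in si-NC (log2 fold change 0.03, edgeR adjusted p = 0.817). AC125611.3, which shares 666 exon bases with TUBA1C, averaged 220.8 CPM in si-SNHG17-1 and 191 CPM in si-NC, with a log2 fold change of 0.21 beside the 0.17 of TUBA1C (edgeR adjusted p = 0.0776). Opposite TUBB, AL662797.3 (ENSG00000272540.1) shares 538 exon bases and averaged 969 ± 38.4 CPM in si-SNHG17-1 and 975 ± 22.3 CPM in si-NC (log2 fold change −0.0090, edgeR adjusted p = 0.939, n = 3 each). In the 2 libraries where TUBA1B was low, AC011603.2 had 1237 CPM (si-SNHG17-1 replicate 2) and 1214 CPM (si-NC replicate 1), within the range of the others. The use of strand in the counting is not given in the sources used here, and reads of a gene and its antisense partner cannot be told apart without strand.

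**Figure D3:**
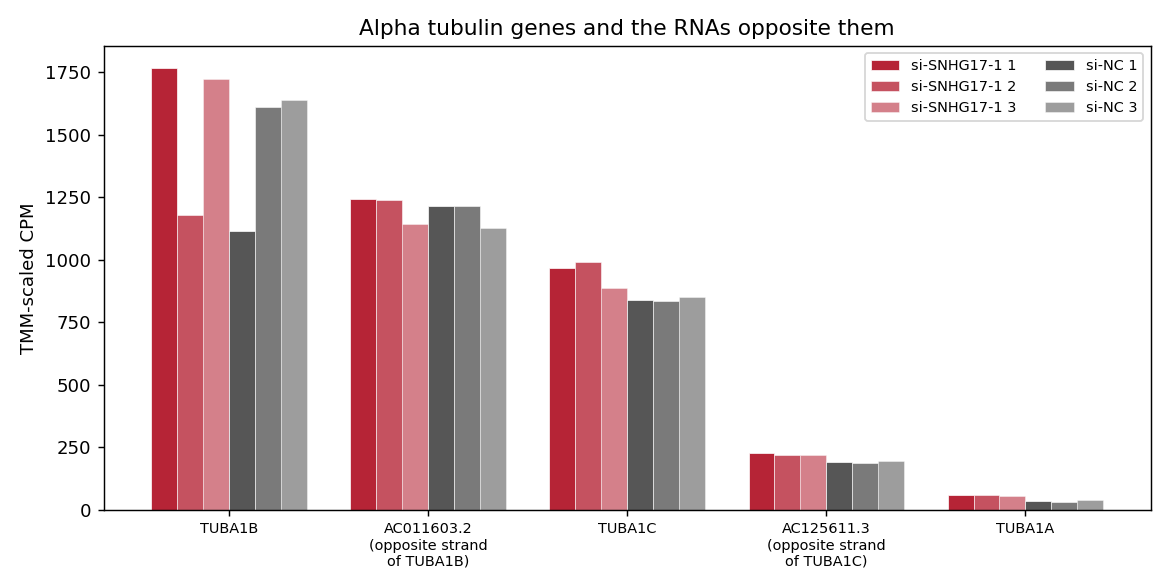
TMM-scaled CPM (y axis, from 0) of the 3 alpha tubulins and of the annotated RNAs opposite TUBA1B and TUBA1C, 1 bar per library, si-SNHG17-1 in red and si-NC in grey. TUBA1B is low in si-SNHG17-1 replicate 2 (1178 CPM) and si-NC replicate 1 (1115 CPM), and AC011603.2 averages 1208 CPM in si-SNHG17-1 and 1185 CPM in si-NC.

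Pseudogenes carried little of the signal. The table holds 13 pseudogenes named after TBCA, TBCB or an alpha or beta tubulin, of which 6 were at 0 in all libraries and only TUBBP1 and TUBAP2 passed the filter. Their highest mean was 1.66 CPM. TBCAP1 was the only other gene sharing 50-base windows with the principal TBCA transcript (683 bases), and longer TBCA transcripts were not searched. TBCAP1 had 0, 4 and 0 counts in si-SNHG17-1 and 2, 7 and 5 counts in si-NC.

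Per kilobase of exon, TBCA was the most abundant cofactor in si-NC and the 4th of the 5 in si-SNHG17-1, with either measure of length. Its level was 6.79 ± 0.615 CPM per kilobase in si-SNHG17-1 and 33.0 ± 3.10 in si-NC (SD, n = 3 each). TBCC stood at 21.4 in si-SNHG17-1 and 27.5 in si-NC, and its si-NC libraries overlapped those of TBCA in this level. TBCB stood at 9.64 in si-SNHG17-1 and 9.78 in si-NC, TBCD at 8.85 in si-SNHG17-1 and 8.36 in si-NC, and TBCE at 3.14 in si-SNHG17-1 and 4.09 in si-NC. TUBB was the most abundant tubulin, with 850.0 CPM per kilobase in si-SNHG17-1 and 846 in si-NC. It was followed by TUBA1B with 436 in si-SNHG17-1 and 407 in si-NC, and TUBB4B was at 269 in both groups. TUBA1C was at 205 in si-SNHG17-1 and 182 in si-NC, and TUBA1A at 16.7 in si-SNHG17-1 and 10.3 in si-NC. The order of the other genes depended on the measure of length. With the longest transcript in place of all exons, TUBA1C came before TUBB4B in both groups, with overlapping libraries in si-NC. In si-SNHG17-1, TUBA1A then came before TBCC, and TBCB (21.8 CPM per kilobase) stood beside TBCC (21.4) with overlapping libraries. In si-NC, TBCB (22.1) then came before TUBA1A (18.5), with overlapping libraries. TBCD became 16.7 CPM per kilobase in si-SNHG17-1 and 15.8 in si-NC, and TBCE 7.18 in si-SNHG17-1 and 9.36 in si-NC. Among neighbours in the order by all exons, the libraries overlapped for TBCB and TBCD in si-SNHG17-1, and for TBCA and TBCC and for TUBA1A and TBCB in si-NC. TBCE was matched to the annotation by symbol, so its length is less certain.

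**Figure D4:**
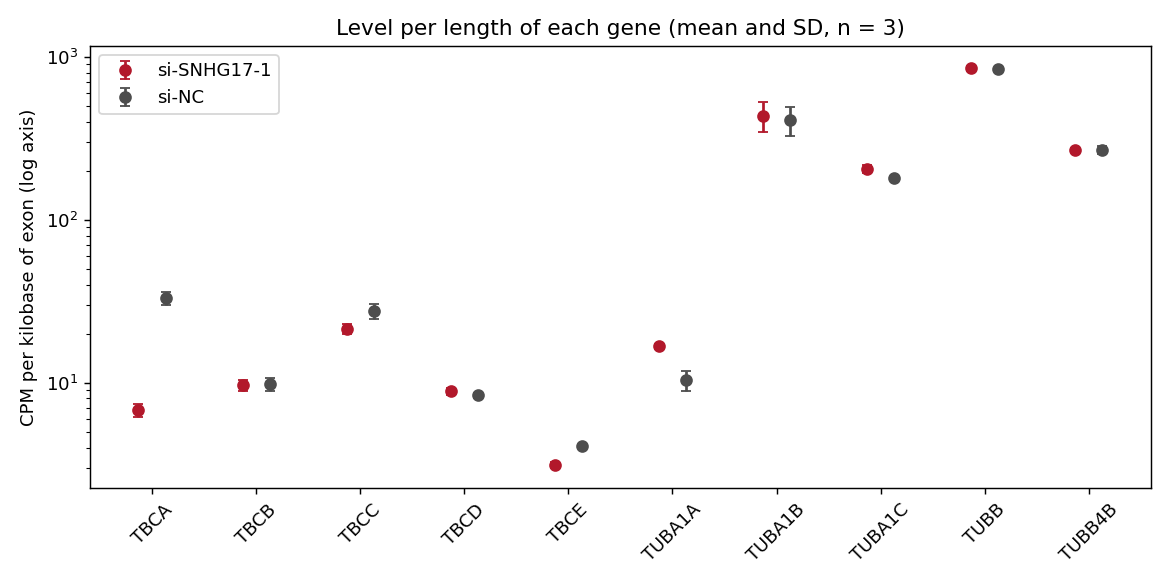
CPM per kilobase of annotated exon (log axis) of each gene, mean and SD of 3 libraries, si-SNHG17-1 in red and si-NC in grey. TBCA is below TBCB and TBCD in si-SNHG17-1 (6.79, beside 9.64 for TBCB and 8.85 for TBCD), while the 4 abundant tubulins have means between 182 and 850.0 in both groups.

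Some genes of the chaperones that act on tubulin before the cofactors were called lower. Of 10 genes of the TRiC chaperonin and its phosducin-like partners, 4 fell (TCP1, CCT3, CCT4 and CCT7) with no gene called higher, and the list's median change was −0.25 (log2). At an unadjusted p under 0.05, 7 were lower and 0 higher, and DESeq2 called 3 lower and 0 higher. With total counts in place of TMM 2 fell, and with 1 library left out 1 to 4 fell. Among all tested genes, edgeR called 5.21% lower and 5.25% higher, and DESeq2 called 1395 lower and 1424 higher of 16684. The share of all genes at an unadjusted p was not taken, so the unadjusted counts given for the lists have no background. CCT7, a TRiC subunit, averaged 260.5 ± 7.22 CPM in si-SNHG17-1 and 363 ± 12.2 CPM in si-NC (log2 fold change −0.48 ± 0.06 SE, edgeR adjusted p = 0.00533, n = 3 each), a call kept in all 13 alternatives. TCP1, another subunit, averaged 110 ± 2.48 CPM in si-SNHG17-1 and 179 ± 29.7 CPM in si-NC (log2 fold change −0.70 ± 0.12 SE, edgeR adjusted p = 0.0133). TCP1 lost the call without si-SNHG17-1 replicate 1 or 3 (0.0624 and 0.0539). CCT5, also a subunit, had a log2 fold change of −0.02 (edgeR adjusted p = 0.890). Of 6 prefoldin subunits, PFDN6 fell (−0.40 ± 0.10 SE, edgeR adjusted p = 0.0485) and none rose, at a median of −0.17. PFDN6 lost the call with RLE scaling or total counts (0.0509 and 0.0655), without the filter (0.0833) and in 5 of 6 fits without 1 library, all but that without si-NC replicate 1. At an unadjusted p 3 subunits were lower and 0 higher, and DESeq2 called 2 lower and 0 higher.

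**Figure D5:**
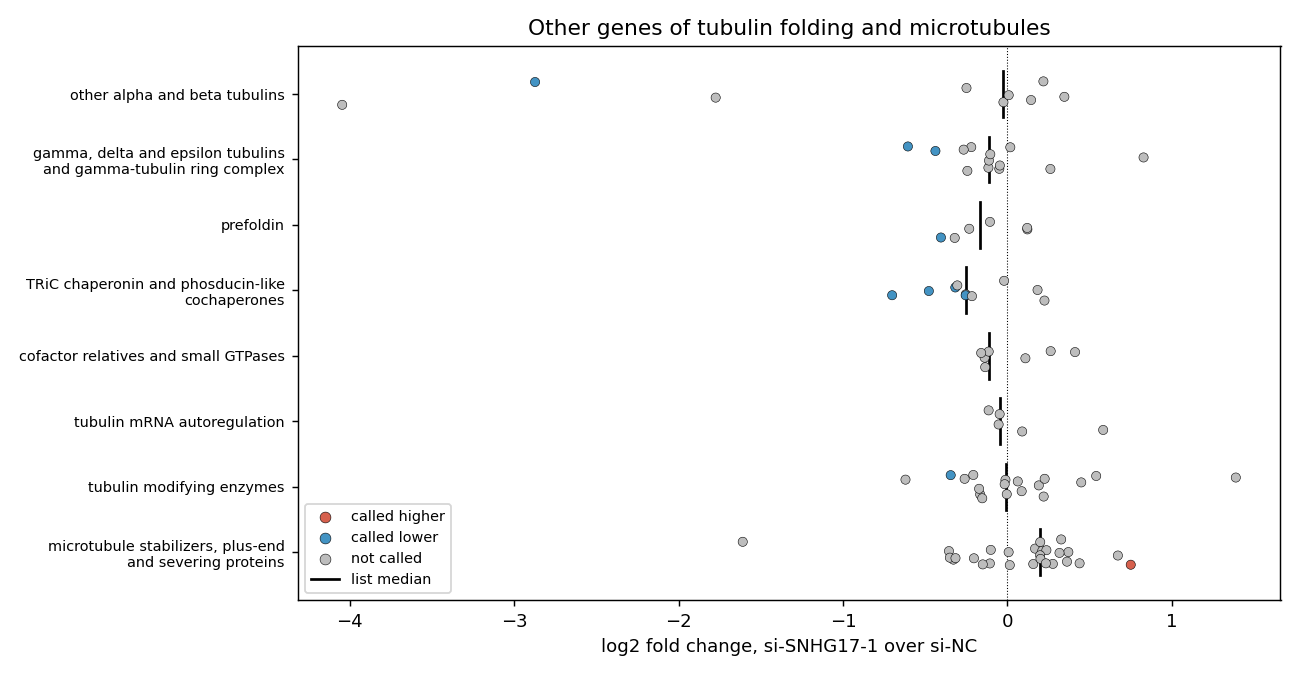
Log2 fold change of si-SNHG17-1 over si-NC (x axis) of each tested gene in 8 lists of tubulin folding and microtubule genes, with genes called higher in red, called lower in blue and not called in grey, and each list's median as a bar. Of 95 genes, 9 were called lower and 1 higher, a share equal to the 10.5% called among all tested genes, and the TRiC list has 4 of the lower calls.

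Over all 8 lists, 95 of 101 genes could be tested, and 1 rose and 9 fell. These 10 calls make the same share as the 10.5% called among all tested genes (5.25% higher and 5.21% lower), so the count is no result about these lists. With total counts in place of TMM, 4 rose and 6 fell. The median log2 fold change was −0.05. Of 9 tested other alpha and beta tubulins, TUBA8, an alpha tubulin, fell and none rose. At an unadjusted p under 0.05, which has no background here, 0 were higher and 3 lower, and DESeq2 called 0 higher and 1 lower. TUBA8 had 4, 12 and 8 counts in si-SNHG17-1 and 47, 94 and 52 counts in si-NC (log2 fold change −2.87 ± 0.52 SE, edgeR adjusted p = 0.0165), and all si-SNHG17-1 libraries were lower. Its call was lost without si-SNHG17-1 replicate 1 or 3 or without si-NC replicate 2 (0.0556, 0.0564 and 0.0625). TUBB2B, which falls outside the rule for naming genes and is given for its spread, had 11, 8 and 0 counts in si-SNHG17-1 and 0, 328 and 19 counts in si-NC. The alpha tubulin TUBA4A, also outside that rule, had 122, 113 and 120 CPM in si-SNHG17-1 and 141, 139 and 142 CPM in si-NC. It was not called (log2 fold change −0.25, 95% interval −0.41 to −0.09, edgeR adjusted p = 0.0610). Among the 9 tested genes of this list, 4 log2 fold changes were positive and 5 negative.

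Of 13 genes of the gamma, delta and epsilon tubulins and the gamma-tubulin ring complex, which starts new microtubules, 2 fell and none rose, at a median of −0.11. Among all tested genes, 5.21% were called lower and 5.25% higher. The ring subunit TUBGCP4 averaged 81.2 ± 2.23 CPM in si-SNHG17-1 and 110 ± 11.5 CPM in si-NC (log2 fold change −0.44 ± 0.09 SE, edgeR adjusted p = 0.0295, n = 3 each). TUBD1, which encodes delta tubulin, averaged 8.10 ± 0.616 CPM in si-SNHG17-1 and 12.3 ± 0.379 CPM in si-NC (−0.60 ± 0.13 SE, edgeR adjusted p = 0.0319). With 1 library left out, TUBGCP4 kept its call only without si-NC replicate 3 and TUBD1 lost it in all 6 fits, at adjusted p up to 0.113 and 0.120 without si-SNHG17-1 replicate 1. TUBD1 also lost it without the filter (0.0610). In this list 1 gene was higher and 4 lower at an unadjusted p under 0.05, which has no background here. DESeq2 called 1 higher and 2 lower.

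Of 18 tubulin modifying enzymes, TTL fell and none rose, beside 10.5% of all tested genes called (5.25% higher and 5.21% lower). TTL, the ligase that puts tyrosine back on alpha tubulin, averaged 151 ± 8.05 CPM in si-SNHG17-1 and 192 ± 4.80 CPM in si-NC (−0.34 ± 0.07 SE, edgeR adjusted p = 0.0256, n = 3 each). Of the 6 fits with 1 library left out, TTL was called by the one that lacked si-NC replicate 1. The highest adjusted p, 0.127, came from the fit that lacked si-SNHG17-1 replicate 1, and the call was also lost without the filter (0.0528). At an unadjusted p, which has no background here, 2 enzymes were higher and 2 lower, and DESeq2 called 2 higher and 1 lower. Of 27 microtubule stabilizers, plus-end and severing proteins, TPPP, a microtubule bundling protein, rose and none fell, at a median of 0.20. TPPP averaged 5.62 ± 0.541 CPM in si-SNHG17-1 and 3.34 ± 0.494 CPM in si-NC (0.75 ± 0.19 SE, edgeR adjusted p = 0.0493), and lost the call in all 6 fits without 1 library, without the filter on low counts (adjusted p = 0.0917) and with limma-voom (0.0527). In that list 7 were higher and 3 lower at an unadjusted p, again without a background, and DESeq2 called 2 higher and 1 lower.

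No gene was called in the remaining lists, beside 10.5% of all tested genes. In lists this short, an absence of calls is no result about them. Of 7 cofactor relatives and small GTPases none was called by edgeR, by DESeq2 or at an unadjusted p under 0.05 (0 each). ARL2, the partner GTPase of TBCC and TBCD, averaged 96.4 ± 4.84 CPM in si-SNHG17-1 and 106 ± 4.09 CPM in si-NC (log2 fold change −0.13 ± 0.08 SE, edgeR adjusted p = 0.314, n = 3 each). Of 5 genes of tubulin mRNA autoregulation, likewise 0 were called by edgeR, by DESeq2 or at an unadjusted p, and up to 1 was called higher with 1 library left out. CNOT1, the scaffold of the CCR4-NOT deadenylase, averaged 363 ± 9.12 CPM in si-SNHG17-1 and 392 ± 41.3 CPM in si-NC (−0.11 ± 0.09 SE, edgeR adjusted p = 0.453). TTC5, given for its role although outside the naming rule, averaged 13.7 CPM in si-SNHG17-1 and 12.9 CPM in si-NC (log2 fold change 0.09, edgeR adjusted p = 0.804).

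The genes whose log2 CPM ran most like that of TBCA over the 6 libraries were GFM2, FOXRED1, TRAP1, PCBP1 and SLC12A3, each with a Pearson's r of 0.999. The 6 libraries form 2 separate groups, so r mainly reflects that split, and 72 of 12785 genes compared had an r over 0.99. The size of change differed. GFM2, a mitochondrial translation factor, averaged 25.1 ± 1.06 CPM in si-SNHG17-1 and 70.9 ± 2.40 CPM in si-NC (SD, n = 3 each). The sodium chloride cotransporter gene SLC12A3 averaged 81.1 ± 5.82 CPM in si-SNHG17-1 and 198 ± 11.2 CPM in si-NC. The log2 fold changes were −1.50 for GFM2, −1.29 for SLC12A3, −0.60 for PCBP1, −0.57 for TRAP1 and −0.30 for FOXRED1.

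Some 3′ UTRs of these genes contained the 6-letter word TCAATC, part of a word that earlier work on these counts had found in several genes that fell. The word was searched on the transcript strand only. It was present in the longest annotated 3′ UTR of 4 of the 10 genes, TBCA, TBCD, TBCE and TUBB, and in that of 20.1% of 19432 protein-coding genes. In the principal transcripts it was present in 2 of the 10, TBCD and TUBB, neither of which was called. The sites are shown with 12 bases on either side, the word in capitals, from GENCODE release 29 (GRCh38).
TBCA: ttatggaaaaacTCAATCtttaaatatcag
TBCE: agactgccacacTCAATCagtggattctgt
TBCD: aagactcttatcTCAATCtatctcccctga
TUBB: ttatctccacttTCAATCtccctccaagct
The site of TBCA (chr5:77692041-77692070, minus strand) starts at base 1064 of a 3′ UTR of 1881 bases, and the 252-base 3′ UTR of the principal TBCA transcript had none, nor had the 137-base one of TBCE. The site of TBCE (chr1:235451983-235452012, plus) lies beyond the end that the deposited table gives for the gene. Those of TBCD and TUBB lie at chr17:82944915-82944944 (plus) and chr6:30724942-30724971 (plus). The siRNA sequence is not given in the sources used here, and a match is no evidence of a site in use. The word came from genes that fell in these same counts, and whether TBCA was one of them is not given here. Its presence in TBCA is thus no independent result. The 20.1% was not matched for 3′ UTR length, and the longest 3′ UTRs of TBCA, TBCD and TBCE had 1881, 3459 and 3681 bases.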

How the data were processed

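RNA sequencing counts of 6 libraries were used, 3 per group, with group and replicate number taken from the sample titles. The authors deposited 1 table of raw counts per gene, not normalised. Reads were aligned with HISAT2 to GRCh38, per the submitters' processing notes. No source used here gives the HISAT2 version, the counting program, its annotation or whether strand was used. Of 58243 gene IDs, 57980 matched GENCODE release 29 without the version and TBCE was matched by symbol. Counts of 2 libraries of a group always differed by more than sampling noise (chi-square over its degrees of freedom 26.0 to 55.1), so all were kept. All 37 mitochondrial genes were at 0 in every library.

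The whole table was fitted with edgeR 4.0.16 in R 4.3.3 (filterByExpr minimum count 10 and minimum total 15, TMM, quasi-likelihood F test, no replicate block, Benjamini-Hochberg over 18679 genes, called at adjusted p under 0.05), after the same code was tested on simulated data. The standard error (SE) is the size of the log2 change over the root of F, and 95% intervals use the fit's degrees of freedom. CPM is TMM-scaled, except for the cell markers, which are per total count. Likeness to TBCA used log2 CPM with a prior count of 2, over genes with a mean of at least 2 CPM, leaving out genes with clone-based names. Alternatives were RLE scaling, total counts, no low-count filter (any total above 0), a filter of 1 CPM in 3 libraries, DESeq2 1.42.0, limma-voom (limma 3.58.1), replicate number as a block, leaving out each library, the longest transcript as length, and Spearman correlation. Named outside the members are up to 2 called genes per direction of each list by adjusted p, or its most abundant gene where none was called, and the 5 genes most like TBCA. Genes given beyond this rule are CCT3, CCT4, CCT5, TTC5, TUBA4A, TUBB2B, the genes beside or overlapping a member, and pseudogenes. Overlapping genes were looked up by gene ID. The members and lists were chosen with earlier results of these data known.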

Additional observations from a re-analysis of the deposited data

How the results depend on the processing

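The number of genes called was 1954 (edgeR), 1297 without a filter on low counts, 532 with the replicate block, and 577 to 1399 with 1 library left out. Of the 9 members other than TBCA, 2 were called, 1 without the filter, 0 with the block and 0 to 1 with 1 library left out, while 4 had an unadjusted p under 0.05 and DESeq2 and limma-voom each called 2. Over all genes, DESeq2 called 2819 of 16684 and limma-voom 2026 of 18679, and the share at an unadjusted p was not taken. Of the listed genes 10 were called, 4 without the filter, 1 with the block and 1 to 10 with 1 library left out. The listed gene called with the block was CCT7 (edgeR adjusted p = 0.0474), so the other listed genes named above as called lost their calls in that fit. The replicate numbers did not pair the libraries (correlations of same-numbered deviations −0.017, −0.037 and −0.015, no library closest to its own number). TBCA kept its direction in all 13 alternatives. Members near 0 changed sign without passing the test. The log2 fold change of TBCB was 0.021 with total counts and −0.088 to 0.051 with 1 library left out. With 1 library left out, that of TUBA1B was −0.063 to 0.27, that of TUBB −0.0077 to 0.046 and that of TUBB4B −0.025 to 0.051. By Spearman correlation 2 of the 5 genes most like TBCA stayed among the highest, where 73 genes tied. The causes were not tested. With 3 libraries per group, small changes can be missed.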
